A study of Rattus norvegicus with 23 samples.

Results

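The genes of oxidative phosphorylation were followed across 4 groups of neonatal rat microglia. The set was taken by gene symbol: every row named Nduf with a, b, c, s or v as the next letter, Sdha to Sdhd, every row starting with Uqcr, Cox4 to Cox8 or Atp5, Cyc1, Cycs, and every row starting with Mt-. This rule found 109 of the 20301 genes in the table. Of these, 96 were nuclear-encoded and 13 were encoded by the mitochondrial genome, and the mitochondrial rows were the protein-coding genes of that genome (7 of complex I, 1 of complex III, 3 of complex IV and 2 of complex V). The nuclear rows held 78 subunits, of which 35 belong to complex I, 4 to complex II, 9 to complex III, 15 to complex IV and 15 to complex V. The other nuclear rows were 8 assembly factors, the electron carrier Cycs, the ATP synthase inhibitor Atp5if1, 6 pseudogenes and 2 further gene copies. Ndufs6 stood in the table under the symbol Ndufs6l1, and Ndufa4 and its relative Ndufa4l2 were counted with complex IV.

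Oxidative phosphorylation passes electrons from NADH and succinate through complexes I to IV to oxygen, and the proton gradient built on the way drives ATP synthase, also called complex V. Most subunits are made from nuclear genes, translated in the cytosol and imported, while a small set is transcribed and translated inside the mitochondrion, so that every complex except complex II joins products of both genomes. Macrophages and microglia are known to alter their use of respiration and glycolysis when bacterial lipopolysaccharide (LPS) activates them.

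The study asked how a preceding inflammatory stimulus alters the response of microglia to neonatal hypoxia-ischemia (HI). Wistar rat pups of 7 days were used, and their microglia were sorted at 24 h after surgery with magnetic beads against CD11b/c, a marker that other myeloid cells also carry. The Sham group (n = 6) had a neck incision only, with no injection described, and the LPS group (n = 5) received 0.1 mg/kg LPS intraperitoneally 4 h before the same sham surgery. In both groups a sample was the entire brain of 1 pup. The NaCl/HI group (n = 6) received NaCl, and the LPS/HI group (n = 6) received LPS at the same dose. Pups of these 2 groups then had the left common carotid artery ligated and breathed 8% oxygen for 50 min, after which they were held at normal body temperature, and each sample pooled the ipsilateral hemispheres of 2 pups. HI and the tissue taken therefore cannot be told apart in comparisons with Sham or LPS, nor can LPS and the injection itself in LPS against Sham. Values were log2 expression values that the authors had corrected for hidden variation before deposit. A difference of 1 is a 2-fold change, and the transformation draws weakly expressed genes towards their mean. The depth of the samples is unknown, because the table holds no counts. These are bulk samples, in which fewer cells of a type and less RNA per cell cannot be told apart.

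Nuclear-encoded subunit genes were higher in LPS microglia than in Sham microglia in all 5 complexes, and no mitochondrial-encoded gene passed the test. Averaged over the 78 nuclear subunits, the LPS samples had mean log2 values of 9.93, 9.95, 9.83, 9.96 and 9.78, while Sham ranged from 9.55 through a median of 9.65 to 9.71. The LPS samples thus all lay above the Sham samples. The NaCl/HI samples ran from 9.58 through 9.78 to 9.86 and the LPS/HI samples from 9.74 through 9.81 to 9.97. Means and standard deviations were 9.65 ± 0.05 in Sham, 9.89 ± 0.08 in LPS, 9.75 ± 0.10 in NaCl/HI and 9.83 ± 0.08 in LPS/HI (SD, n = 6, 5, 6 and 6). NaCl/HI overlapped every other group, whereas no LPS/HI sample fell as low as the highest Sham sample. The average over the 13 mitochondrial-encoded genes was 12.52 ± 0.09 in Sham, 12.42 ± 0.08 in LPS, 12.46 ± 0.16 in NaCl/HI and 12.43 ± 0.13 in LPS/HI (SD, same n). All 4 groups overlapped there. The nuclear average minus the mitochondrial average of the same sample was -2.88 ± 0.07 in Sham, -2.53 ± 0.14 in LPS, -2.72 ± 0.14 in NaCl/HI and -2.60 ± 0.16 in LPS/HI. In LPS it ran from -2.71 to -2.38, above the Sham range of -2.99 to -2.80.

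**Figure D1:**
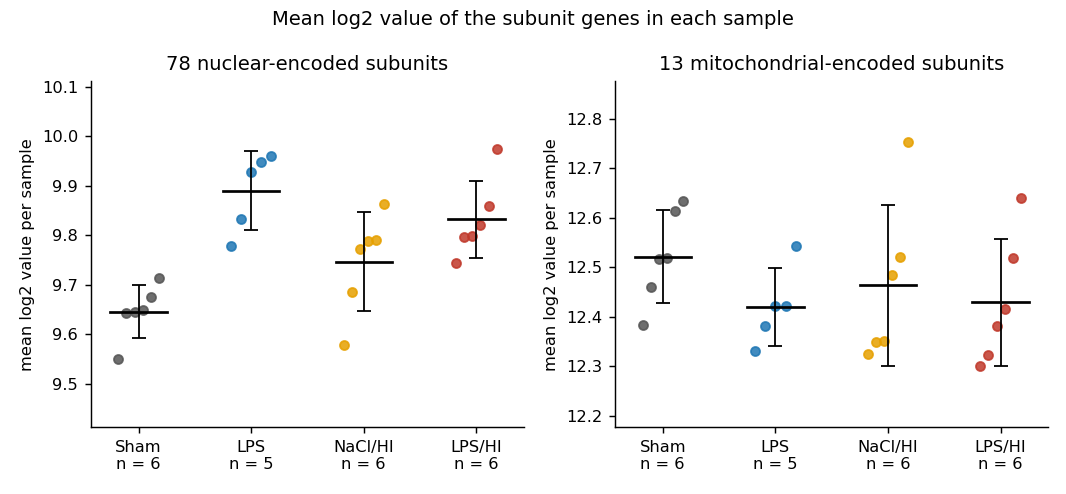
Mean log2 value per sample over the 78 nuclear-encoded subunits (left) and the 13 mitochondrial-encoded subunits (right) in each group. Points are samples, horizontal lines the group means and error bars the SD, and the axes do not start at 0. The LPS points of the left panel (9.78 to 9.96) lie above all Sham points (9.55 to 9.71), and the groups of the right panel overlap.

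Some promoters are shown here because factors known to regulate respiratory chain genes, NRF1, the ETS factor GABP and YY1, recognise short motifs near their starts. RefSeq windows of 250 bases before to 50 bases after the start (assembly GRCr8, another build than that used for the expression values) were found for 68 of the 78 nuclear subunits, and both strands were searched. The NRF1 motif GCGCATGC was present in 9 of the 68 genes (13.2%), against 2.47% of all 33469 windows of the table. The ETS motif CCGGAAGT was present in 7 (10.3%, against 3.81%) and the YY1 motif AAGATGGCG in 10 (14.7%, against 1.73%). Any of the motifs was found in 24 genes (35.3%, against 7.53%). Of these 24 genes, 22 were called higher in LPS against Sham, with a median difference of 0.31, where 10.2% of all genes were called higher and 7.56% lower. Cox8c, which holds an NRF1 match 11 bases before its start, was called lower. Of the 44 genes without a match 33 were called higher, with a median difference of 0.26. This split was not tested. The stretches below give 120 bases before the start on the coding strand, 5′ to 3′, for 1 subunit per motif, with the motif in capitals. In Atp5po (chr11:44657484-44657603, minus strand), a subunit of the ATP synthase stalk, NRF1 matches on both strands overlap and begin 59 bases before the start. In Uqcrq (chr10:38089979-38090098, minus strand), a complex III subunit, the ETS match begins 22 bases before the start, and in Atp5pf (chr11:37375102-37375221, minus strand), another stalk subunit, the YY1 match begins 111 bases before it.
Atp5po: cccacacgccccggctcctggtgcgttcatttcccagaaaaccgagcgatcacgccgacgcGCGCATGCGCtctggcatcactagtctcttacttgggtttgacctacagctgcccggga
Uqcrq: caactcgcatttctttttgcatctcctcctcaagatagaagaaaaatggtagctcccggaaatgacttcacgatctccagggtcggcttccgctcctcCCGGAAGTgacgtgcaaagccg
Atp5pf: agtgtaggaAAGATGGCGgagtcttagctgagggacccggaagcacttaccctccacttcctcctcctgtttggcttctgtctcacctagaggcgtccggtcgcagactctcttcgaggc
These 3 genes were higher in LPS than in Sham by 0.40, 0.43 and 0.26 on the log2 scale. The matches are descriptions of the sequence and do not show that a factor binds there.

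In LPS against Sham, 65 of the 109 genes were called higher and 2 lower (limma, Benjamini-Hochberg adjusted p under 0.05 over all genes), where 10.2% of all genes were called higher and 7.56% lower. Among the 78 nuclear subunits 62 rose and 1 fell, with a median log2 difference of 0.28, while the median over all genes was -0.01. In 54 of them every LPS sample lay above every Sham sample, as held for 8.05% of all genes, and in none of the 109 did every LPS sample lie below (5.83% of all genes). The changes were small: none of the 109 genes passed a fold change of 2, which 0.069% of all genes passed together with the adjusted p. The nuclear median was 0.25 within libraries 1 to 12 (3 LPS and 3 Sham samples) and 0.29 within libraries 13 to 23 (2 and 3), with 72 of the 78 genes above 0 in each. Leaving out single samples gave between 59 and 69 called genes, and the exact Wilcoxon rank-sum test called 67 (66 higher, 1 lower). Of all genes called in this comparison, 57.5% were higher, and 68.1% after median centring. That centring left 66 genes of the set higher and 0 lower.

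**Figure D2:**
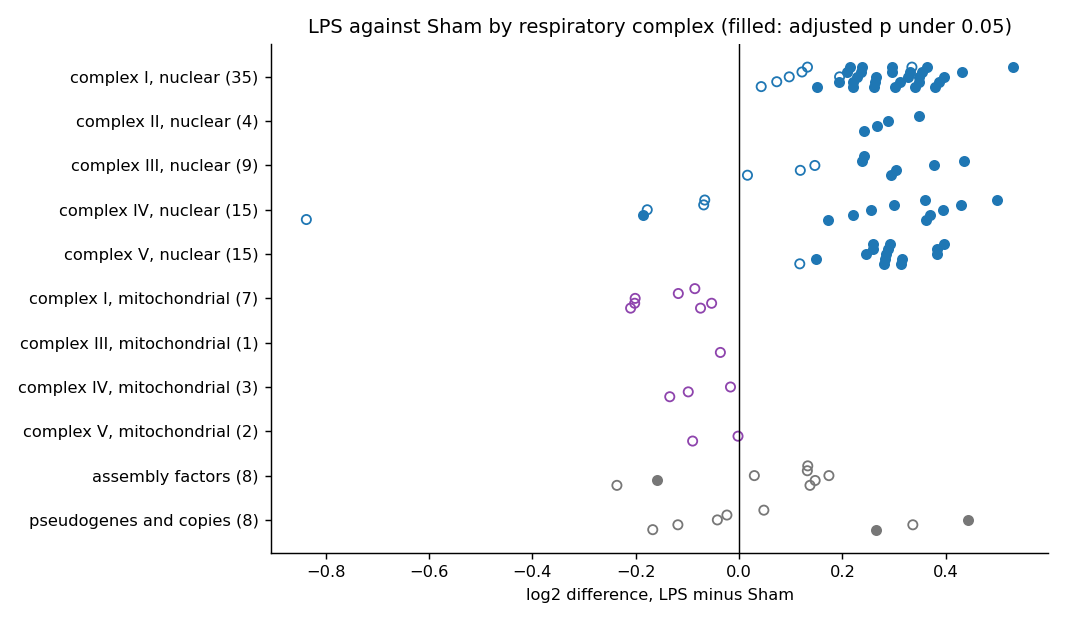
Log2 difference of LPS minus Sham (x axis) for the genes of each complex or class (y axis, number of genes in brackets). Each point is a gene, filled where the limma adjusted p is under 0.05. Nearly all nuclear subunits lie to the right of 0, and the 13 mitochondrial-encoded subunits lie at or to the left of 0, all unfilled. Cycs and Atp5if1 are not plotted.

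Complex I, which takes electrons from NADH, had 28 of its 35 nuclear subunits higher (median 0.26). Ndufv1, the NADH-binding core subunit, had LPS values of 11.12, 11.19, 11.03, 11.14 and 11.04, and Sham values from 10.73 through a median of 10.77 to 10.89. The lowest LPS sample was above the highest Sham sample, and the rise was 0.31 (SE 0.05, 1.24-fold, limma adjusted p = 0.000213). Ndufs1, the largest core subunit, rose by 0.19 (SE 0.06, limma adjusted p = 0.0258), with overlapping groups. The Ndufs1 call was lost without LPS replicate 1, 2 or 4 or Sham replicate 6, where the adjusted p ran from 0.0545 to 0.0828, and in the exact Wilcoxon rank-sum test (0.101). The 7 subunits that did not pass were Ndufa5, Ndufb4, Ndufb9, Ndufc2, Ndufs4, Ndufs5 and Ndufv3, with differences between 0.04 and 0.33.

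Complex II, which oxidises succinate and also works in the TCA cycle, had all 4 subunits higher, and in each of them the LPS and Sham samples were fully separated. Sdhb, its iron-sulfur subunit, had LPS values of 11.64, 11.72, 11.57, 11.72 and 11.55, and Sham values from 11.23 through 11.30 to 11.36. The difference was 0.35 (SE 0.04, limma adjusted p = 1.46e-05), the smallest adjusted p among the 109 genes. The flavoprotein subunit Sdha rose by 0.24 (SE 0.04), the membrane anchors Sdhc by 0.27 (SE 0.06) and Sdhd by 0.29 (SE 0.07).

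Complex III passes electrons from ubiquinol to cytochrome c, and 6 of its 9 nuclear subunits rose. Uqcrq, a small subunit next to cytochrome b, had LPS values of 9.58, 9.59, 9.45, 9.65 and 9.33, against 9.02 through 9.08 to 9.20 in Sham. The groups did not overlap, and the difference was 0.43 (SE 0.08, limma adjusted p = 0.00114). Uqcrc1, a core protein, rose by 0.38 (SE 0.06), the Rieske iron-sulfur protein Uqcrfs1 by 0.29 (SE 0.06) and cytochrome c1, encoded by Cyc1, by 0.30 (SE 0.08). Uqcr10, Uqcr11 and Uqcrc2 did not pass, with differences of 0.12, 0.02 and 0.15. The carrier Cycs, cytochrome c itself, had a difference of 0.03 (95% confidence interval -0.22 to 0.28, limma adjusted p = 0.895).

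Complex IV reduces oxygen and contains several subunits with alternative forms for different tissues. Of its 15 nuclear subunits 10 rose and 1 fell. Cox6c, a widely expressed small subunit, had LPS values of 10.87, 10.98, 10.83, 11.01 and 10.88, and Sham values from 10.34 through 10.54 to 10.61. Those groups were separated, with a difference of 0.39 (SE 0.07, limma adjusted p = 0.000796). Cox5a rose by 0.36 (SE 0.07), Cox6b1 by 0.17 (SE 0.04) and Ndufa4 by 0.22 (SE 0.05). Cox4i1, the general form of subunit 4, rose by 0.30 (SE 0.05), whereas its hypoxia-associated counterpart Cox4i2 had a difference of -0.07 (95% confidence interval -0.27 to 0.13). Whether the paired forms differ from each other in their response was not tested.

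For subunit 6a, the general form Cox6a1 rose by 0.36 (SE 0.07) and the heart and muscle form Cox6a2 by 0.50 (SE 0.14, limma adjusted p = 0.0168). Cox6a2 read 5.13, 5.08, 4.74, 5.32 and 4.68 in LPS and 4.21 through 4.53 to 4.73 in Sham, so that 1 LPS sample lay within the Sham range, and without LPS replicate 4 the adjusted p was 0.059. For subunit 7a, the muscle form Cox7a1 had a difference of -0.07 and the general form Cox7a2 one of -0.84 (95% confidence interval -1.55 to -0.13, limma adjusted p = 0.0927). Cox7a2 ranged widely within groups, from 4.07 to 5.12 in LPS, 4.06 to 6.03 in NaCl/HI and 4.16 to 6.00 in LPS/HI. Its mean was 5.30 in Sham and 4.46 in LPS, where 0 of 5 samples lay above the Sham mean, although the groups overlapped. Reads of such a short gene can be shared with copies of its sequence, which was not tested here, and its value is uncertain. Cox8c, a testis form at the low end of the scale, fell by 0.19 (SE 0.06, limma adjusted p = 0.0375), and Ndufa4l2, induced by hypoxia in other cells, had a difference of -0.18 (limma adjusted p = 0.11). The Cox8c call was lost without Sham replicate 2, 5 or 6 or LPS replicate 1, 2 or 3 (adjusted p 0.0619 to 0.0861), after median centring of the samples (0.0698), after quantile normalization (0.088) and when only the 2 groups were fitted (0.0523). The table had no row under the symbols Cox6b2, Cox8a and Cox8b, so they could not be analysed.

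Complex V makes ATP, and 14 of its 15 nuclear subunits rose, Atp5mk being the exception with 0.12. Atp5f1b, the catalytic beta subunit, had LPS values of 14.17, 14.21, 14.05, 14.29 and 14.05, and Sham values from 13.68 through 13.77 to 13.84. The groups were separated, with a difference of 0.38 (SE 0.06, limma adjusted p = 0.00023). The alpha subunit Atp5f1a rose by an equal 0.38 (SE 0.06). Atp5if1, which inhibits the enzyme when it runs in reverse, rose as well, by 0.30 (SE 0.07, limma adjusted p = 0.00306).

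Of the 8 assembly factors taken in by the symbol rule, 0 rose and 1 fell (limma), against 10.2% and 7.56% of all genes. Of these factors, 5 had an unadjusted p under 0.05, against 32% of all genes, and 6 had a difference above 0 (median 0.13). In 1 of them, Ndufaf7, the LPS samples all lay above Sham (0.14, limma adjusted p = 0.0568), as held for 8.05% of all genes. Their difference from the subunits was not tested. Cox7a2l, which helps join complexes III and IV into supercomplexes, had LPS values of 11.17, 11.11, 11.12, 11.03 and 11.06 and Sham values from 11.12 through 11.27 to 11.38. The groups overlapped narrowly, and the fall of 0.16 (SE 0.05) had a limma adjusted p of 0.0295. This call did not hold without Sham replicate 1 or 5 or LPS replicate 2, 4 or 5 (adjusted p 0.0544 to 0.0779), after median centring (0.0643) or in the exact Wilcoxon rank-sum test (0.0697). The factors Ndufaf1 to Ndufaf7 had differences between -0.24 and 0.17. Among the pseudogenes, Ndufv3-ps1 rose by 0.44 (SE 0.12, limma adjusted p = 0.017), a call lost without LPS replicate 1 (0.0551), and Atp5mpl-ps1 rose by 0.26. These rows may share reads with their parent genes, which was not tested, and are uncertain.

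The mitochondrial-encoded genes all had differences at or below 0 in LPS against Sham, from -0.21 to -0.00, with a median of -0.09, and 0 of 13 were called (limma; 1 of 13 at an unadjusted p under 0.05, against 32% of all genes). Mt-nd2 and Mt-nd4, subunits of the membrane arm of complex I, had the differences furthest from 0. Mt-nd2 read 11.16, 11.14, 11.46, 11.18 and 11.45 in LPS, and 11.27 through 11.48 to 11.70 in Sham. The groups overlapped, and the difference was -0.21 (95% confidence interval -0.42 to -0.00, limma adjusted p = 0.153). Mt-nd4 had a difference of -0.20 (-0.41 to 0.01), and Mt-nd4l one of -0.20 (-0.47 to 0.07). The remaining complex I genes Mt-nd1, Mt-nd3, Mt-nd5 and Mt-nd6 lay between -0.12 and -0.05.

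Mt-co1, the catalytic subunit of complex IV, read 17.26, 17.19, 17.35, 17.39 and 17.40 in LPS and 17.13 through 17.38 to 17.40 in Sham. The ranges were nearly the same, with a difference of -0.02 (95% confidence interval -0.19 to 0.16). Mt-co2 and Mt-co3 had differences of -0.13 and -0.10, cytochrome b (Mt-cyb) -0.04, and the ATP synthase membrane subunits Mt-atp6 and Mt-atp8 -0.09 and -0.00. For 10 of the 13 genes the sign held under every alternative run, and for Mt-atp8, Mt-co1 and Mt-nd3 it turned under some of them. The difference between nuclear and mitochondrial genes itself was not tested.

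**Figure D3:**
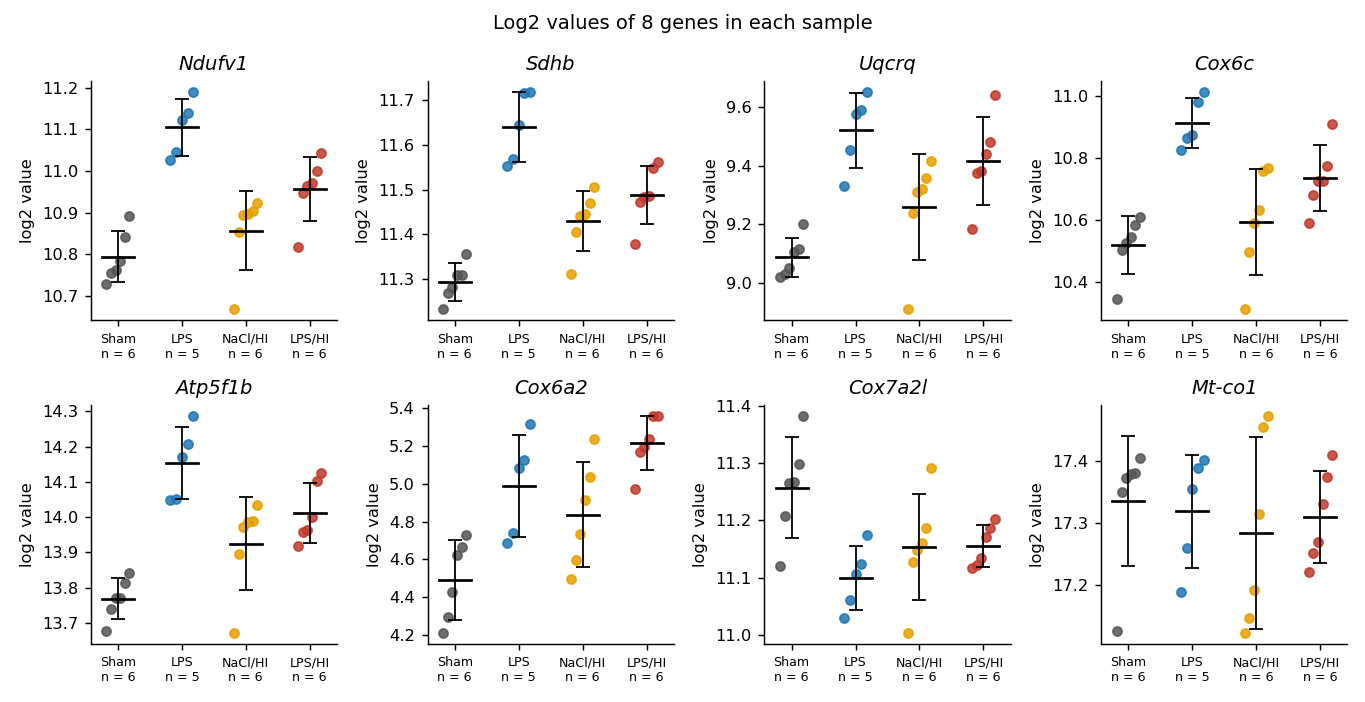
Log2 values of 8 genes in each sample of the 4 groups, with group means (lines) and SD (error bars); each panel has its own axis, which does not start at 0. In Ndufv1, Sdhb, Uqcrq, Cox6c and Atp5f1b the LPS points lie above the Sham points, in Cox6a2 the LPS/HI points do, Cox7a2l is lowest on average in LPS, and the groups of Mt-co1 overlap.

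After HI alone, no gene of the set was called against Sham (limma, 0 of 109; 31 of 109 at an unadjusted p under 0.05, against 14.8% of all genes), where 0.00985% of all genes were called higher and 0% lower. The exact Wilcoxon rank-sum test also called 0 of the set and no gene of the whole table here, its smallest adjusted p being 0.213. In 1 gene the NaCl/HI samples all lay above Sham and in 0 all below, against 0.522% and 0.493% of all genes. The nuclear subunits had a median difference of 0.11 with 72 of 78 above 0, and the mitochondrial-encoded genes one of -0.06. Sdhb read 11.31 through 11.44 to 11.51 in NaCl/HI, overlapping Sham, with a difference of 0.14 (95% confidence interval 0.05 to 0.22, limma adjusted p = 0.176). Cyc1 had a difference of 0.24 (0.09 to 0.39, limma adjusted p = 0.169) and Atp5f1b one of 0.16 (0.03 to 0.28, limma adjusted p = 0.245). NaCl/HI replicate 4 had the lowest nuclear average of its group (9.58, against 9.69 to 9.86 in the other samples), and without it 10 genes were called higher, where 2.03% of all genes were called higher and 0.941% lower.

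In LPS/HI against Sham, 44 genes of the set were called higher and 0 lower (limma), against 5.3% and 3.48% of all genes. They included 41 of the 78 nuclear subunits, by complex 18 of 35, 3 of 4, 5 of 9, 7 of 15 and 8 of 15, with a nuclear median of 0.19. In 27 subunits the groups did not overlap in the higher direction, as in 3.85% of all genes, and none was separated in the lower direction (2.52% of all genes). The nuclear median was 0.13 within libraries 1 to 12 and 0.26 within libraries 13 to 23. The count depended on single samples. It fell to 29, 29, 24 and 16 without Sham replicate 1, 4, 5 or 6, and to 19, 19 and 12 without LPS/HI replicate 2, 3 or 5. In these fits 2.73% to 4.06% of all genes were called higher and 1.47% to 2.59% lower. It rose to 79 genes, 12 of them lower and 9 of them mitochondrial-encoded, when samples were weighted by their spread, with weights estimated gene by gene because the default estimate did not converge, so that this count is uncertain. Under these weights 20% of all genes were called higher and 17.7% lower. Of all genes called in this comparison, 60.4% were higher, and 49.1% after median centring. That centring left 33 genes of the set higher and 0 lower.

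Cox6a2 had the largest rise here, with LPS/HI values from 4.97 through 5.22 to 5.36, all above the Sham samples, and a difference of 0.73 (SE 0.13, limma adjusted p = 0.0035). Uqcrq rose by 0.33 (SE 0.08, limma adjusted p = 0.017) and Ndufv3-ps1 by 0.49 (SE 0.12, limma adjusted p = 0.0166), both with overlapping groups. Sdhb rose by 0.20 (SE 0.04, limma adjusted p = 0.0089), Atp5f1b by 0.24 (SE 0.06, limma adjusted p = 0.0186) and Cox4i1 by 0.19 (SE 0.05, limma adjusted p = 0.0231). Cyc1 (0.22, limma adjusted p = 0.0616), Cox6c (0.22, 0.055) and Ndufa2 (0.26, 0.0581) did not pass. The mitochondrial-encoded genes had a median of -0.09, and none was called (limma; 0 of 13 also at an unadjusted p under 0.05, against 26.8% of all genes).

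**Figure D4:**
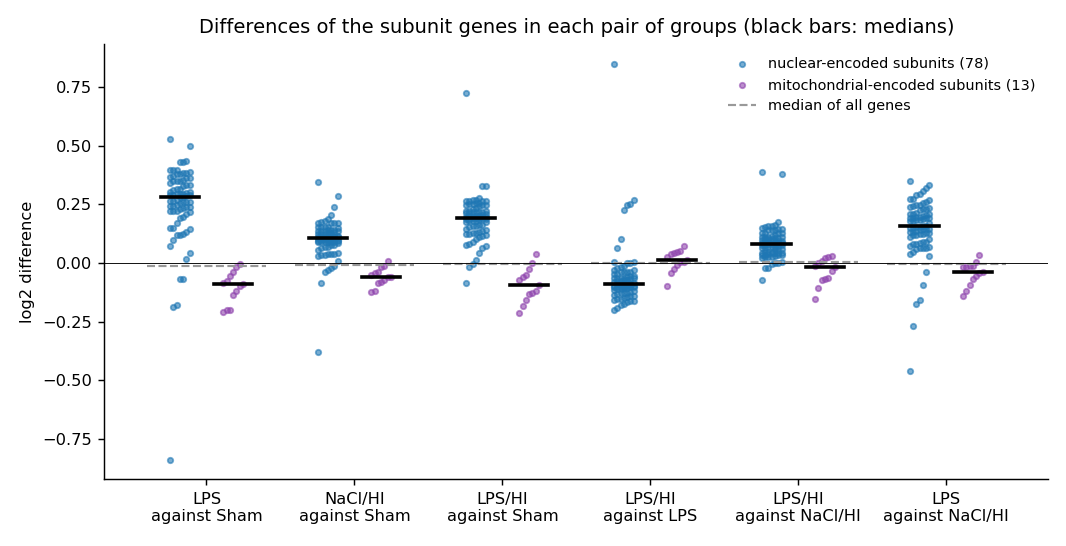
Log2 differences (y axis) of the 78 nuclear-encoded and 13 mitochondrial-encoded subunits in each pair of groups (x axis). Points are genes, black bars the medians and dashed lines the median of all genes, near 0. The nuclear medians are 0.28, 0.11, 0.19, -0.09, 0.08 and 0.16 from left to right, and the mitochondrial medians lie between -0.09 and 0.01. Pairs that share a group are not independent.

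The 2 groups that received LPS were compared for HI together with the tissue taken, and the 2 HI groups to see what LPS added. In LPS/HI against LPS, no gene of the set was called (limma, 0 of 109; 15 at an unadjusted p under 0.05, against 15.5% of all genes), where 1.22% of all genes were called higher and 0.719% lower. The nuclear subunits had a median of -0.09, with 9 of 78 above 0, and the median was -0.13 within libraries 1 to 12 and -0.03 within libraries 13 to 23. Atp5f1a, with LPS/HI values of 13.43 through 13.51 to 13.60 below LPS values of 13.60 to 13.82, had a difference of -0.19 (95% confidence interval -0.31 to -0.08, limma adjusted p = 0.0728). Sdhb had one of -0.15 (-0.24 to -0.06, limma adjusted p = 0.0732). Atp5f1a was the only gene of the set with separated samples in this pair, lower in LPS/HI, where 2.32% of all genes were separated higher and 1.85% lower. The count became 1 without LPS replicate 3 or NaCl/HI replicate 4. In LPS/HI against NaCl/HI, again 0 of 109 were called (limma; 9 at an unadjusted p under 0.05, against 10.6% of all genes), where 0.153% of all genes were called higher and 0.0493% lower. The exact Wilcoxon rank-sum test called 0 of the set in both pairs and no gene of the whole table, its smallest adjusted p being 0.104 and 0.162. No gene of the set had separated samples (0.901% of all genes higher, 0.433% lower). The nuclear median was 0.08, with 74 of 78 above 0. It was 0.03 within libraries 1 to 12 (54 above 0) and 0.14 within libraries 13 to 23 (76 above 0). Cox6a2 had a difference of 0.38 (95% confidence interval 0.10 to 0.66, limma adjusted p = 0.267). The mitochondrial medians of these 2 pairs were 0.01 and -0.02, and the first was 0.07 within libraries 1 to 12 and -0.06 within libraries 13 to 23.

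LPS and NaCl/HI differ in both treatments and in the tissue taken. Here 24 genes of the set were higher in LPS and 0 lower (limma), against 5.32% and 3.66% of all genes, among them 23 nuclear subunits (median 0.16) and the assembly factor Ndufaf7. The samples were separated in 14 genes higher and 1 lower, against 4.79% and 2.52% of all genes. Cox6c was higher in LPS by 0.32 (SE 0.07, limma adjusted p = 0.0081), without overlap. Ndufa2, an accessory subunit of complex I, was higher by 0.33 (SE 0.09, limma adjusted p = 0.0209), with overlap. Ndufaf7, a methyltransferase that acts during complex I assembly, read 9.10, 9.08, 9.06, 9.25 and 9.18 in LPS and 8.84 through 8.91 to 9.02 in NaCl/HI, a difference of 0.21 (SE 0.05, limma adjusted p = 0.0105). The count was 9 without LPS replicate 2 or LPS replicate 4, where 3.33% and 3.69% of all genes were called higher, and Ndufa2 then missed the threshold (adjusted p 0.0695 and 0.0655). When only the 2 groups were fitted, the calls of Ndufa2 (adjusted p 0.0567) and Ndufaf7 (0.0591) were lost. The exact Wilcoxon rank-sum test called 0 of the set and no gene of the whole table in this pair, its smallest adjusted p being 0.0593. The mitochondrial median was -0.04, with -0.06 within libraries 1 to 12 and 0.0082 within libraries 13 to 23.

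The interaction asks whether the difference between LPS and Sham was the same as that between LPS/HI and NaCl/HI, of which only the former also sets injected against uninjected pups. The former also came from entire brains of 1 pup and the latter from ipsilateral hemispheres of 2 pups. HI and the tissue taken therefore cannot be told apart in the interaction. The interaction was called for 1 gene of the set, lower (limma; 53 of the 96 nuclear rows and 0 of the 13 mitochondrial-encoded genes at an unadjusted p under 0.05, against 15.1% of all genes), where 0.365% of all genes were called higher and 0.719% lower. Sdhb was higher by 0.35 in LPS against Sham and by 0.06 in LPS/HI against NaCl/HI, and the interaction was -0.29 (SE 0.06, limma adjusted p = 0.0316). This call was lost in 9 fits, with adjusted p from 0.0505 to 0.0684, when LPS/HI replicate 2, 4 or 6, NaCl/HI replicate 1 or 5, or replicate 2 or 4 of Sham or LPS was left out. Leaving out LPS replicate 5 gave a count of 2, and leaving out NaCl/HI replicate 4 gave 15, where 0.783% of all genes were called higher and 1.7% lower. The nuclear subunits had a median interaction of -0.19, with 6 of 78 above 0, and the mitochondrial-encoded genes one of 0.06. Cyc1 (-0.32, limma adjusted p = 0.135), Atp5f1b (-0.30, 0.0987) and Atp5f1a (-0.28, 0.0756) did not pass. In the other comparisons too, no gene of the set passed a fold change of 2 together with the adjusted p, which 0.00493% of all genes did in NaCl/HI against Sham, 0.0936% in LPS/HI against Sham, 0.0345% in LPS/HI against LPS, 0.0148% in LPS/HI against NaCl/HI, 0.0591% in LPS against NaCl/HI and 0.00985% in the interaction.

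Other mitochondrial gene groups were counted in the same fit of LPS against Sham, beside 10.2% of all genes higher and 7.56% lower. The mitochondrial ribosomal proteins, which translate the mitochondrial-encoded subunits, had 36 of 73 genes higher and 0 lower (median 0.18), led by Mrps12 (0.54, limma adjusted p = 9.93e-05). The TCA cycle had 9 of 17 higher, among them Idh3g (0.24) and Suclg1 (0.22). The import machinery and outer membrane had 10 of 25 higher, among them the receptor subunit Tomm22 (0.27), and the assembly factors of complexes II to V 7 of 27, among them Coa3 (0.32). In these last 3 groups no gene was lower. Complex I assembly factors outside the symbol rule had 3 of 10 higher and 1 lower. Regulators of mitochondrial biogenesis had 0 of 14 higher and 1 lower, Pprc1, a coactivator related to PGC-1α (-0.34, limma adjusted p = 0.000299). Mitochondrial transcription and replication genes had 2 of 15 higher, among them the topoisomerase Top1mt (0.23), and 2 lower, among them the transcription terminator Mterf1 (-0.20). Hypoxia-related metabolic switches had 2 of 12 higher, the protease Lonp1 (0.17) and the kinase Pdk3 (0.18). This list shares Ndufa4l2 and Cox4i2 with the 109 genes.

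In LPS/HI against Sham, where 5.3% of all genes were called higher and 3.48% lower, 17 of 73 ribosomal protein genes, 5 of 17 TCA cycle genes and 4 of 25 import genes were higher. So were 2 of 27 assembly factors of complexes II to V and 2 of 10 of complex I, and none of these 5 groups had a lower gene. The biogenesis regulators had 0 of 14 higher and 1 lower (Pprc1, -0.22), transcription and replication 1 of 15 higher and 2 lower, and the hypoxia switches 1 of 12 higher. In NaCl/HI against Sham no gene of these groups was called.

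Markers of cell types were counted in the same fits, beside 10.2% of all genes higher and 7.56% lower in LPS, and 5.3% and 3.48% in LPS/HI. The microglia markers were the most strongly expressed list, and 0 of 9 rose and 4 fell in LPS against Sham, among them Sall1 (-0.25). Their summed level on the log2 scale was 17.75 to 17.95 in Sham and 17.68 to 17.79 in LPS. In LPS/HI 0 rose and 1 fell (17.67 to 17.84), with a median difference of -0.07. Of 9 neutrophil markers 1 rose and 2 fell in LPS (12.08 to 12.44 in Sham, 12.37 to 12.57 in LPS), with a median difference of -0.16. The sum rested mainly on Csf3r, with means of 11.66 in Sham and 11.90 in LPS, while the granule gene Ngp had means of 7.08 and 6.02. In LPS/HI 5 rose (12.38 to 13.42), with S100a9 at 1.18. Of 3 monocyte markers Plac8 alone rose (1.17), and it set the sum, which was 10.49 to 10.96 in Sham and 11.33 to 12.01 in LPS. The mean of Ccr2 was 7.46 in Sham and 7.28 in LPS, that of Ly6c 5.36 and 5.39, and the median difference of the list 0.03. In LPS/HI 1 of 3 rose. Of 7 neuronal markers 4 fell in LPS (9.95 to 10.18 in Sham, 9.80 to 9.98 in LPS) and 3 in LPS/HI (9.77 to 10.07). Astrocyte markers rose for 2 of 6 in LPS and 1 in LPS/HI, endothelial markers rose for 1 of 5 and fell for 1 in LPS and rose for 1 in LPS/HI, and 0 of 7 oligodendrocyte markers were called. The lowest group mean of any marker was 3.29, of the oligodendrocyte gene Mog in LPS. The part that these cells have in the subunit differences was not tested.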

How the data were processed

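RNA sequencing of 23 samples of microglia from P7 Wistar rats was analysed (6 Sham, 5 LPS, 6 NaCl/HI and 6 LPS/HI), grouped by their titles; the 0.1 mg/kg dose and the treatments come from the study's methods. The authors quantified reads with kallisto 0.48.0 on mRatBN7.2, imported them into DESeq2, dropped genes with fewer than 10 counts in total, added up protein-coding genes that share a symbol, and took rlog values from which 3 surrogate variables were then removed. The deposited values are therefore log2 values corrected by the authors, from -1.35 to 23.4 over 20301 genes; without counts the depth, and with it the counting error of weak genes, is unknown.

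R 4.3.3 with limma 3.58.1 and Python 3.11.15 with pandas 2.3.3, numpy 2.4.6 and matplotlib 3.10.9 were used. All 23 samples entered 1 limma fit with a variance trend and no filter. For the 3 removed variables, 16 instead of 19 residual degrees of freedom were used, since the residuals span 16 dimensions. The 6 pairs of groups and the interaction were tested, with Benjamini-Hochberg adjustment over all genes of a comparison; genes with an adjusted p under 0.05 were called, and the study's further threshold of a 2-fold change was tried. Scripts were tested on simulated data. P-values measure the spread between samples of a group. For exact Wilcoxon rank-sum tests (two-sided) and other alternatives see the closing section. Library numbers 1 to 12 and 13 to 23 each held all groups; no source calls these batches. Reference names matched 95 of the 109 symbols.

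The members and lists were chosen with earlier results of these data known. Named genes are every mitochondrial-encoded gene, up to 3 called members with the largest rises and falls per comparison, up to 2 called assembly factors, and a list fixed by role (Ndufv1, Ndufs1, Ndufa4, Ndufa4l2, Sdha, Sdhb, Uqcrc1, Uqcrfs1, Cyc1, Cycs, Cox4i1, Cox4i2, Cox5a, Atp5f1a, Atp5f1b, Atp5if1 and the tissue forms of Cox6a, Cox6b, Cox7a and Cox8); members named as not called, as promoter examples or in full lists of a complex were added after their values were seen, and of the other lists up to 2 genes with the smallest p were named. Some genes that these rules name are not reported here.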

Additional observations from a re-analysis of the deposited data

Results flagged for a closer look

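Among 176 groups of values of single genes (5 or 6 samples each), 9 held a sample far from the others of its group by Dixon's criterion, which chance alone meets in about 1 in 20 groups. NaCl/HI replicate 4 was lowest in Atp5if1 (10.07, next sample 10.30), Cyc1 (10.26, next 10.63), Ndufv1 (10.67, next 10.85) and Uqcrq (8.91, next 9.24), and also had the lowest nuclear average of its group. LPS/HI replicate 1 was lowest in Atp5if1 (10.17, next 10.41) and LPS/HI replicate 5 highest in Cyc1 (10.75, next 10.60). Sham replicate 5 (10.74, next 10.41) and NaCl/HI replicate 3 (10.86, next 10.36) were highest in Mt-atp8, and Sham replicate 6 was lowest in Mt-co1 (17.13, next 17.35). For Sdhb, LPS/HI minus NaCl/HI was smaller than LPS minus Sham, with an interaction of -0.29 (limma adjusted p = 0.0316). This call was lost without any 1 of 9 samples (adjusted p 0.0505 to 0.0684) and with a replicate block (0.11). Sham pups had no injection described and NaCl/HI pups had NaCl, so LPS and the injection cannot be told apart in this interaction. LPS minus Sham also came from entire brains and LPS/HI minus NaCl/HI from pooled ipsilateral hemispheres. HI and the tissue taken therefore cannot be told apart here either.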

How the results depend on the processing

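Medians of the nuclear and of the mitochondrial-encoded genes moved by less than the spread between replicates under the alternatives run on all libraries or without 1 of them. The nuclear medians kept their sign there, but the mitochondrial medians near 0 did not all do so: that of LPS/HI against LPS turned with median centring, array weights, or when LPS/HI replicate 1 or either of LPS replicates 1 and 2 was left out, that of LPS against NaCl/HI with array weights or without NaCl/HI replicate 3, and that of LPS/HI against NaCl/HI without NaCl/HI replicate 3 or LPS/HI replicate 4. Within libraries 13 to 23 the mitochondrial median turned to -0.06 in LPS/HI against LPS and to 0.0082 in LPS against NaCl/HI. The counts of called genes in the set moved more. Shares of all genes called are not printed beside most counts of this section, so a changed count alone is not a result about the set. Leaving out single samples gave 59 to 69 genes in LPS against Sham, 0 to 10 in NaCl/HI against Sham, 12 to 54 in LPS/HI against Sham, 0 to 1 in LPS/HI against LPS, 0 to 0 in LPS/HI against NaCl/HI, 9 to 30 in LPS against NaCl/HI and 0 to 15 for the interaction. With a fold change above 2 every count was 0. With degrees of freedom as fitted, counts were 1 in NaCl/HI against Sham, 4 in LPS/HI against LPS, 37 in LPS against NaCl/HI and 7 for the interaction. Median centring gave 3 in LPS/HI against LPS and 3 for the interaction. Array weights, whose default estimate did not converge and which were estimated gene by gene, gave uncertain counts of 6, 79, 21, 4 and 42 in NaCl/HI against Sham, LPS/HI against Sham, LPS/HI against LPS, LPS/HI against NaCl/HI and the interaction. In LPS against NaCl/HI, fitting only the 2 groups gave 10. The exact Wilcoxon rank-sum test gave 0 there and called no gene of the whole table, its smallest adjusted p being 0.0593. The cause of these changes was not tested. In the corrected values, 33 pairs with the same replicate number had correlations of residuals from -0.47 to 0.47, and 3 of 23 samples correlated best with their own number. The authors' correction may have removed variation shared by a replicate number, so these correlations cannot decide whether the samples were paired. With a replicate block the counts were 57 in LPS against Sham, 11 in LPS/HI against Sham, 9 in LPS against NaCl/HI and 0 for the interaction, and Cox6a2, Cox7a2l, Cox8c, Ndufs1 and Ndufv3-ps1 in LPS against Sham and Ndufa2 in LPS against NaCl/HI were no longer called.

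Signs that turned in LPS against Sham belonged to genes that were not called. After quantile normalization Cycs became -0.0101, Cox4i2 0.00567 and Mt-co1 0.22, and Mt-atp8 became 0.0135 after median centring and 0.0388 with array weights. Leaving out single samples gave -0.0173 to 0.101 for Cycs (below 0 without Sham replicate 1 or 6 or LPS replicate 4), -0.0465 to 0.065 for Mt-atp8 (above 0 without Sham replicate 5 or LPS replicate 2, 4 or 5), -0.0585 to 0.0157 for Mt-co1 (above 0 without LPS replicate 2) and -0.0908 to 0.00864 for Mt-nd3 (above 0 without Sham replicate 5). Unknown depth limits weak genes such as Cox8c and Cox6a2 most.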
